A study of Homo sapiens with 6 samples.

Results

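Collagens are the structural proteins of the extracellular matrix. Each molecule is a triple helix of 3 chains, of 1 kind or of several, and every chain is made by its own gene. Fibrillar collagens form the ropes of connective tissue, FACIT collagens sit on those fibrils, collagen IV forms the sheet of basement membranes, collagen VI forms beaded filaments at the cell border, multiplexins join basement membranes to the tissue below, and transmembrane collagens stay anchored in the cell surface. In carcinoma tissue most fibrillar collagen is made by fibroblasts, while carcinoma cells themselves can make basement membrane, collagen VI and transmembrane chains. The genes described here are those whose symbol has the form of a collagen chain (COL, a number, A, a number), without antisense genes or pseudogenes: 44 of the 63241 genes in the table.

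RNA was measured by sequencing in 6 libraries of MDA-MB-231, an established human line derived from a triple-negative breast carcinoma. Of these, 3 came from non-treated control cells and 3 from cells given 40 µM of ArA and cultured for 24 h. ArA stands for arachidonic acid in the study's title, a polyunsaturated fatty acid of membrane lipids. The culture medium (DMEM) held 10% fetal bovine serum, a vehicle for the controls is not named in the labels, and all 6 libraries come from the same cell line. Whether replicates were separate cultures is not stated, so the p-values cover only how far these libraries differ from each other, and that spread may be technical. In bulk RNA, fewer cells of a kind and less RNA per cell cannot be told apart.

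Levels are in TPM, a gene's share of all transcripts in its library, corrected for transcript length. TPM keep no read totals, so depth is unknown. The label was checked against markers of the line. Vimentin (VIM) had 1335.20 to 1515.28 TPM and AXL 259.91 to 348.61 TPM, while estrogen receptor ESR1 had 0 to 0.03 TPM, E-cadherin CDH1 0 to 0.17 TPM progesterone receptor PGR was listed at 0 and the epithelial marker EPCAM had 3.17 to 6.92 TPM. Of 10 fibroblast markers, POSTN was listed at 0 everywhere, DCN was above 0 in 1 library only, at 0.05 TPM, and the summed level of all 10 was 5.35 to 7.93 TPM in the controls and 6.90 to 9.12 TPM after ArA. Most of that sum was PDGFRB and FBLN1. Of 6 endothelial markers the sum was 1.16 to 1.83 and 1.21 to 1.36 TPM, and of 5 skeletal muscle markers 0 to 0.14 and 0 to 0.20 TPM. Of 6 leukocyte markers, CD68 (184.67 to 267.11 TPM), which many cell types carry in lysosomes, made nearly the whole sum of 186 to 223 TPM in control and 218 to 268 TPM in ArA-treated cells. Transcripts of the mitochondrial genome made up 31.6 to 32.9% of control and 26.9 to 32.1% of ArA libraries.

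Of the 44 chains, 15 reached 1 TPM on average over all 6 libraries. The lowest of these were COL16A1 at 1.42 TPM and COL7A1 at 1.43 TPM. Just below the limit were COL27A1 at 0.940 TPM and COL9A3 at 0.887 TPM. Among the other 29 chains, 7 had a mean from 0.1 to 1 TPM, 18 were above 0 with a mean under 0.1 TPM and no value over 0.24 TPM, and COL23A1, COL25A1, COL6A5 and COL9A1 were listed at 0 in all 6 libraries. The summed level of all 44 chains was 418.00, 456.04 and 378.44 TPM in control replicates 1, 2 and 3 and 460.14, 442.41 and 430.92 TPM in ArA replicates 1, 2 and 3, with overlapping groups. That is 0.0378 to 0.0460% of all TPM in a library.

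COL13A1 codes for a transmembrane collagen of cell contacts and was the highest chain. Its levels were 217.78, 228.00 and 188.87 TPM in the controls and 207.49, 219.11 and 213.49 TPM after ArA, so that the ArA values lay within the control range. COL13A1 alone made 49.9 to 52.1% of the summed collagen TPM in the controls and 45.1 to 49.5% in ArA libraries, all lower than the controls by a narrow gap (exact 2-sided permutation p = 0.1, share chosen after values were seen). Together with COL4A1, COL4A2, COL6A1 and COL6A2 it made 81.5 to 84.1% of that sum in every library. The other transmembrane chain above 1 TPM was COL17A1, the hemidesmosome collagen of epithelial cells, at 3.44, 4.06 and 3.22 TPM in the controls and 4.15, 3.72 and 4.35 TPM after ArA. The COL13A1 gene (ENSG00000197467) is found on chromosome 10 (forward strand, 69801867 to 69964275) in GENCODE v29 on hg38.

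**Figure D1:**
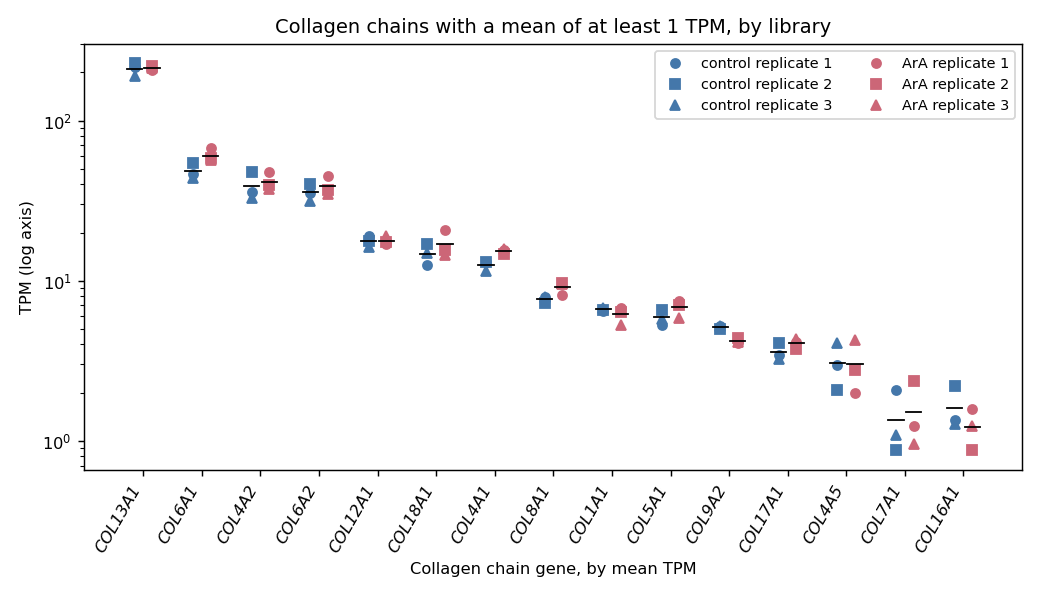
Levels of the 15 collagen chains with a mean of at least 1 TPM. The vertical axis is TPM on a log axis, points are single libraries (blue control, red ArA, shape by replicate) and black bars are group means. COL13A1 sits near 200 TPM, above the next chains, COL6A1, COL4A2 and COL6A2.

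Upstream sequences are shown for COL13A1, as the gene of the highest chain, and for COL18A1 and COL6A2, as 2 of the 6 chains that were highest in the same library of each group (described further on). The windows are from RefSeq on GRCh38.p14, forward strand, at chr10:69801656-69801866, chr21:45404915-45405136 and chr21:46097862-46098096, and end before the first exon in GENCODE v29. Of the 15 chains, 12 had an entry in that table. Capitals mark the GC box GGGCGG and the TATA box TATAAA, searched with the CCAAT box CCAAT on both strands with overlaps allowed.
COL13A1: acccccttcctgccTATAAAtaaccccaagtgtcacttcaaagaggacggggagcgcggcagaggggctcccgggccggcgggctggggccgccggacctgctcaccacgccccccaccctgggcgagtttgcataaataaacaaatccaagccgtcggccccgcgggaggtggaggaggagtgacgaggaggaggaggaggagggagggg
COL18A1: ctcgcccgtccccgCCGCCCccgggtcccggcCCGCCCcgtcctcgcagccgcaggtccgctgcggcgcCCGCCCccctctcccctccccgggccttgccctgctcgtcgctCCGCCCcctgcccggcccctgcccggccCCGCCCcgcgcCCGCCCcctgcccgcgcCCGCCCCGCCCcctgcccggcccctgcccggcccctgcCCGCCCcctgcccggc
COL6A2: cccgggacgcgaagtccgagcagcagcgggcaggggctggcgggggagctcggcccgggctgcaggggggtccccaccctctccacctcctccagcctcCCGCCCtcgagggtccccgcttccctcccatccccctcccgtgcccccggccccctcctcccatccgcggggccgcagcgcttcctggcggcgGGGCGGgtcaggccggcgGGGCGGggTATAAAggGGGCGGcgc
The COL18A1 window held 9 GC boxes and no TATA box, the COL6A2 window 4 GC boxes and 1 TATA box, and the COL13A1 window no GC box and 1 TATA box. These are matches of letters anywhere in the window. The COL13A1 match lies near the upstream end of its window, far from the first exon. None of them held CCAAT. Of all 35116 promoter windows, 40.8 to 42.0% held a GC box, 9.12 to 10.1% a TATA box and 28.9 to 30.9% a CCAAT box in stretches of the same 3 lengths. Those stretches ended at base 250 of each window, while the 3 shown end earlier, so the positions compared are not the same. The GC content of the windows was 66.4% for COL13A1, 88.7% for COL18A1 and 79.6% for COL6A2.

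Several chains were present without the partners they are known to assemble with. COL1A1, the main chain of collagen I, had 5.27 to 6.76 TPM, while its partner COL1A2 had 0.13 TPM in control replicate 1, 0.03 TPM in ArA replicate 2 and was listed at 0 in the other 4 libraries. COL5A1, which starts fibril assembly, had 5.30 to 7.47 TPM, and its partners COL5A2 and COL5A3 had 0.08 to 0.39 TPM and 0 to 0.01 TPM. COL9A2 was at 4.08 to 5.22 TPM, with COL9A3 at 0.42 to 1.59 TPM and COL9A1 listed at 0. Collagen VI showed the same gap.

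COL6A3, the large chain of collagen VI, had 0.20, 0.37 and 0.17 TPM in the controls and 0.22, 1.07 and 0.38 TPM after ArA. Its partners COL6A1 and COL6A2 were at 43.61 to 67.13 TPM and 31.44 to 45.05 TPM. The highest COL6A3 value was in ArA replicate 2, where the fibroblast proteoglycan LUM also had its highest value, 1.16 TPM against 0.06 to 0.44 TPM in the other 5 libraries. Whether these values are related was not tested. COL3A1, the reticular fibre collagen that fibroblasts make with collagen I, was at 0.05 to 0.14 TPM.

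The comparison of ArA with control libraries tests for transcripts whose level changed with the fatty acid. By the limma test with p-values adjusted over all 12999 tested genes, 0 of the 15 chains passed an adjusted p of 0.05 in either direction, and all 15 adjusted p-values were 0.999. Over all genes 0.0231% passed (0.0154% higher, 0.00769% lower). At an unadjusted p under 0.05 in limma there were 2 chains, COL6A1 and COL4A1, both higher, where the share over all genes was 2.78% (2.28% higher). The log2 fold change, taken on the log2(TPM + 1) scale that understates differences of low genes, was positive for 11 chains and negative for 4, beside 68.9% positive and 31.1% negative over all genes. It was positive for 9 chains under each of 3 other scalings (53.2%, 51.7% and 49.3% of all genes) and after a correction for GC content, where 53.3% of all genes were positive. At an unadjusted p under 0.05 in limma there were 0 chains with median-of-ratios scaling and 0 with quantile normalization (262 and 289 of all genes). Without the mitochondrial genome there was 1 chain, COL9A2, lower (276 of all genes). In TPM as deposited, the median log2 fold change of the 15 chains was 0.11, against 0.06 over all tested genes. After GC correction it was 0.05, and 2 chains, COL6A1 (higher) and COL9A2 (lower), had an unadjusted p under 0.05 in limma. With that correction 2.29% of all genes were at such a p and higher, and 1.79% lower, while 0.0317% passed the adjusted p higher and 0.00791% lower, none of them a collagen chain.

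All 3 ArA values lay above all 3 control values for COL6A1, COL4A1 and COL8A1, 3 of 15 chains, beside 6.84% of all tested genes. They lay below all control values for COL9A2, 1 of 15 chains, beside 1.21% of all tested genes. In either direction 8.05% of all genes were apart. COL8A1 and COL9A2 stayed apart under all 3 other scalings. COL4A1 stayed apart only in TPM recomputed without the mitochondrial genome, and COL6A1 under none of the 3. Under these scalings 2.96%, 3.01% and 3.36% of all genes were apart and higher, and 2.38%, 2.72% and 2.68% apart and lower, in the order median of ratios, quantile normalization and TPM without the mitochondrial genome. After GC correction all 4 were apart, as were 4.9% of all genes higher and 4.01% lower. The number of chains is small and no test was made over the list.

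**Figure D2:**
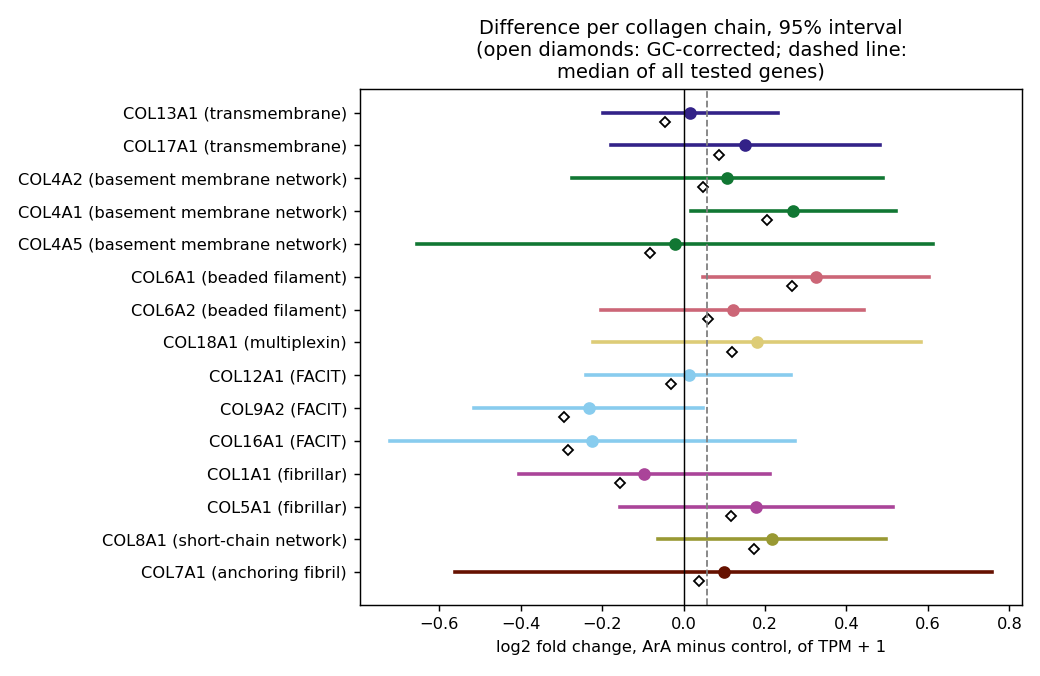
Log2 fold change of each of the 15 chains, ArA minus control, on the log2(TPM + 1) scale. Filled points with bars are limma estimates with 95% intervals, coloured by collagen class, open diamonds are estimates after GC correction, and the dashed line is the median of all tested genes (0.06). The intervals of COL6A1 and COL4A1 lie above 0 before adjustment for the number of genes, and the other 13 include 0.

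COL6A1, a chain of collagen VI, showed the largest positive difference among the 15. It had 46.40, 54.59 and 43.61 TPM in the controls and 67.13, 58.05 and 56.46 TPM after ArA. The lowest ArA value exceeded the highest control value by little, and ArA replicate 1 was the highest of all. The group levels were 48.2 ± 5.71 and 60.5 ± 5.76 TPM (SD, n = 3 each), 1.26-fold, with a log2 fold change of 0.33 (SE 0.12, 95% interval 0.05 to 0.60). Its unadjusted p in limma was 0.0279, which ranked 183 among all genes, and an exact 2-sided permutation p was 0.1, the smallest that 3 against 3 libraries allow.

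COL6A2 had 35.17, 40.23 and 31.44 TPM in the controls and 45.05, 36.69 and 34.78 TPM after ArA, with overlapping groups. Its log2 fold change was 0.12 (SE 0.14, 95% interval -0.20 to 0.44), or 0.06 after GC correction. Leaving out ArA replicate 1 gave 0.011, leaving out control replicate 3 gave 0.036 and leaving out control replicate 2 gave 0.21. The ratio of the pair within a library does not depend on a factor applied to all its genes. COL6A1 over COL6A2 was 1.32, 1.36 and 1.39 in control and 1.49, 1.58 and 1.62 in ArA libraries, without overlap (exact 2-sided permutation p = 0.1). This ratio was chosen after the values were seen. Both genes lie on the forward strand of chromosome 21, COL6A1 from 45981737 to 46005050 and COL6A2 from 46098097 to 46132849.

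Basement membrane collagen IV is built mainly from the chains of COL4A1 and COL4A2. COL4A1 had 13.17, 13.07 and 11.47 TPM in the controls and 15.57, 14.62 and 15.83 TPM after ArA, so that each ArA library was above each control library. The group levels were 12.6 ± 0.954 and 15.3 ± 0.637 TPM (SD, n = 3 each), 1.22-fold, with a log2 fold change of 0.27 (SE 0.11, 95% interval 0.02 to 0.52). The unadjusted p was 0.0393 in limma, and 0.0531 after GC correction, where the log2 fold change was 0.21. The exact 2-sided permutation p was 0.1.

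COL4A2 had 36.03, 47.58 and 32.88 TPM in the controls and 48.10, 39.37 and 37.45 TPM after ArA. Control replicate 2 and ArA replicate 1 stood above the rest, and the groups overlapped. Its log2 fold change was 0.11 (SE 0.16, 95% interval -0.28 to 0.49), and it became -0.00053 without control replicate 3. COL4A2 was 2.37 to 3.64 times COL4A1 in TPM, with overlapping groups (exact 2-sided permutation p = 0.4), although a molecule of collagen IV holds more of the COL4A1 chain.

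COL4A1 and COL4A2 lie head to head on chromosome 13. In RefSeq on GRCh38.p14 COL4A1 starts at 110307157 on the reverse strand and COL4A2 at 110307284 on the forward strand, with 126 bases between them. In GENCODE v29 their spans overlap, since COL4A2 begins at 110305812 and COL4A1 ends at 110307233. Whether counting used strand is not given in the sources used here, so reads from that overlap may not be separated. COL4A5, a collagen IV chain of kidney and other basement membranes, had 2.98, 2.08 and 4.10 TPM in the controls and 2.00, 2.78 and 4.28 TPM after ArA. Both groups covered the same range for COL4A5, and its 95% interval of -0.66 to 0.61 was wide. The other collagen IV chains COL4A3, COL4A4 and COL4A6 were at 0.02 to 0.53 TPM.

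**Figure D3:**
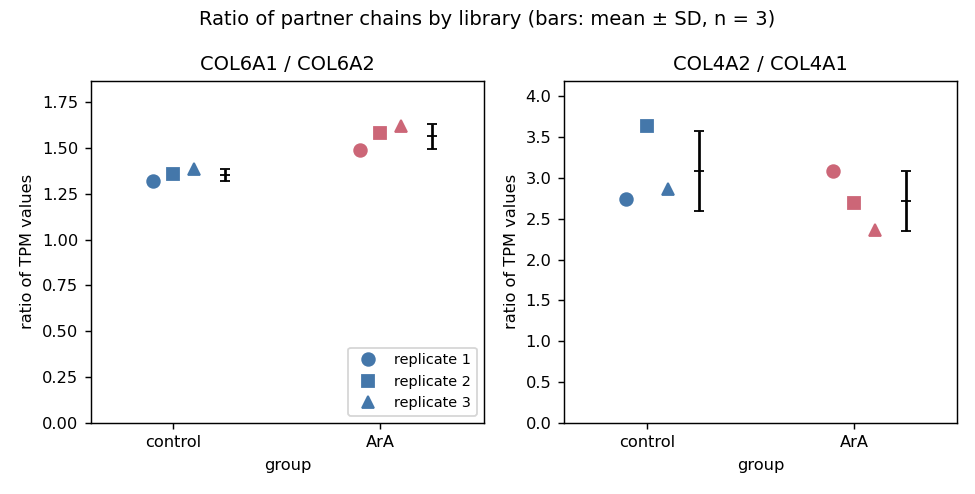
Ratio of TPM values of partner chains in each library, COL6A1 over COL6A2 on the left and COL4A2 over COL4A1 on the right, with points by replicate and black bars for mean ± SD (n = 3). The COL6A1 ratios of ArA libraries (1.49 to 1.62) lie above those of control libraries (1.32 to 1.39), and the COL4A2 ratios overlap.

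COL18A1, a multiplexin whose C-terminal piece is endostatin, had 12.46, 16.95 and 14.88 TPM in the controls and 20.78, 15.47 and 14.54 TPM after ArA. Only ArA replicate 1 was above all control libraries. The log2 fold change of COL18A1 was 0.18 (SE 0.17, 95% interval -0.22 to 0.58), and 0.03 without ArA replicate 1. The end of COL18A1 overlaps SLC19A1, a folate carrier gene on the other strand with a mean of 1.54 TPM. COL16A1, COL5A1 and COL4A5 are also overlapped on the other strand, by AC114488.2 at a mean of 0.02 TPM, COL5A1-AS1 listed at 0 and RF00019 listed at 0.

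Of the 10 FACIT chains, 3 were above 1 TPM. COL9A2, known from cartilage, had 5.19, 4.99 and 5.22 TPM in the controls and 4.08, 4.41 and 4.17 TPM after ArA. All ArA values were below all control values, and both groups were tight. The group levels were 5.13 ± 0.125 and 4.22 ± 0.171 TPM (SD, n = 3 each), 0.822-fold, with a log2 fold change of -0.23 (SE 0.12, 95% interval -0.51 to 0.05). The unadjusted p of COL9A2 was 0.0912 in limma, 0.0165 after GC correction (log2 fold change -0.29), and 0.1 in the exact 2-sided permutation test.

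COL12A1, a large fibril-bound chain, had 19.03, 17.72 and 16.20 TPM in the controls and 16.98, 17.48 and 18.93 TPM after ArA. The ArA values lay within the control range, and it differed by 0.01 in log2 (SE 0.11, 95% interval -0.24 to 0.26). As a fold of TPM + 1 that interval ran from 0.847 to 1.20. The interval of COL13A1 ran from 0.872 to 1.17 (log2 fold change 0.02, SE 0.09). Both intervals are unadjusted and hold only for TPM as deposited and the spread between these libraries. The signs of COL12A1 and COL13A1 were negative under the 3 other scalings. COL16A1, another FACIT chain, had 1.34, 2.20 and 1.28 TPM in the controls and 1.57, 0.87 and 1.23 TPM after ArA, with a 95% interval of -0.72 to 0.27. Its highest value, in control replicate 2, stood apart from the other 5.

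Of the 11 fibrillar chains, COL1A1 and COL5A1 were above 1 TPM. COL1A1 had 6.50, 6.59 and 6.75 TPM in the controls and 6.76, 6.42 and 5.27 TPM after ArA, where ArA replicate 3 alone was low. Its log2 fold change was -0.10 (SE 0.13, 95% interval -0.40 to 0.21), and -0.0047 without ArA replicate 3. COL5A1 had 5.30, 6.60 and 5.78 TPM in the controls and 7.47, 7.08 and 5.87 TPM after ArA. The groups overlapped through control replicate 2 and ArA replicate 3, and the COL5A1 log2 fold change was 0.18 (SE 0.14, 95% interval -0.16 to 0.51).

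COL8A1, a short-chain network collagen of vessel walls and the cornea, had 7.94, 7.28 and 7.89 TPM in the controls and 8.19, 9.63 and 9.59 TPM after ArA. The groups were apart, with ArA replicate 1 close to the control libraries. The group levels were 7.70 ± 0.367 and 9.14 ± 0.820 TPM (SD, n = 3 each), 1.19-fold, with a log2 fold change of 0.22 (SE 0.12, 95% interval -0.06 to 0.50) and an unadjusted p of 0.110 in limma. Its partner COL8A2 was at 0.01, 0.01 and 0.03 TPM in the controls and 0.04, 0.06 and 0.04 TPM after ArA, too low to be tested.

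COL7A1 forms the anchoring fibrils below epithelia. It had 2.07, 0.88 and 1.08 TPM in the controls and 1.24, 2.37 and 0.95 TPM after ArA. Control replicate 1 and ArA replicate 2 were both about 2 TPM, and the other 4 libraries lay between 0.88 and 1.24 TPM. The COL7A1 log2 fold change of 0.10 had a 95% interval of -0.56 to 0.76, the widest of the 15, and turned negative without ArA replicate 2 (-0.13) or without control replicate 2 (-0.04).

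Some chains differed between libraries in a way that crossed the groups. COL4A2, COL6A1, COL6A2, COL18A1, COL5A1 and COL16A1, 6 of 15 chains, were highest among control libraries in replicate 2 and highest among ArA libraries in replicate 1. The same 2 libraries held the lowest values of their groups for COL4A5, COL8A1 and COL9A2. The share of all tested genes that were highest or lowest in both libraries was not counted, so the pattern cannot be called particular to collagens. GC content moved with this pattern over all genes. The median deviation from the gene's mean, in log2(TPM + 1), of GC-rich genes (above 57.9%) less that of GC-poor genes (below 40.9%) was 0.47 in control replicate 2 and 0.34 in ArA replicate 1, against -0.33 to -0.08 in the other 4 libraries. The part of GC content in the chains' pattern was not tested.

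Of the 15 tested chains, 13 were richer in GC than the median tested gene. The median GC content of the longest transcript was 61.1% over the 15 chains and 48.3% over all tested genes, and 10 of 15 chains were above 57.9%. The 6 chains named first had 60.3 to 67.2% GC, while COL4A5 had 50.9% and COL8A1 46.8%. Other GC-rich chains did not share the pattern. COL7A1, with 64.8%, deviated from its chain mean by -0.33 in control replicate 2 and -0.08 in ArA replicate 1. COL1A1, with 61.1%, deviated by only 0.04 and 0.08 in these libraries. COL9A2, with 64.8%, was the lowest of its group in both libraries, though by a small margin in the controls (4.99 against 5.19 and 5.22 TPM). Its deviation from the chain mean was 0.08 in control replicate 2 and -0.16 in ArA replicate 1. Without these 2 libraries 11 of the 15 chains had positive log2 fold changes (65.8% of all genes), with a median of 0.10 against 0.06 over all genes, and 0 passed in limma with 3 at an unadjusted p under 0.05, as were 9.65% of all genes.

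**Figure D4:**
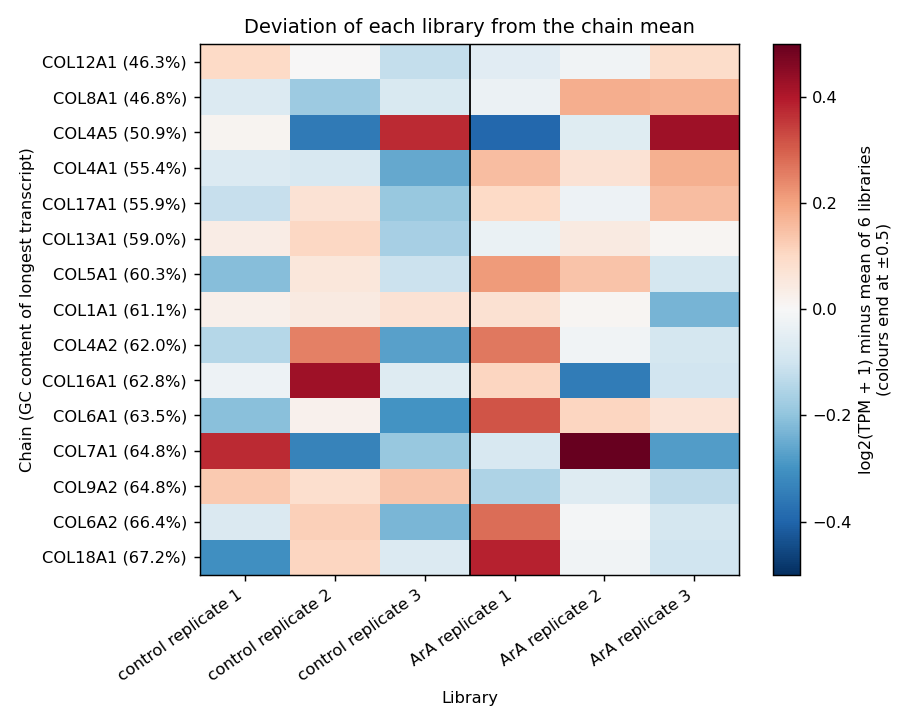
Deviation of each library (columns) from the mean of the chain over 6 libraries (rows), in log2(TPM + 1), red above and blue below the mean. Rows are ordered by GC content of the longest transcript, from 46.3% for COL12A1 to 67.2% for COL18A1. Control replicate 2 and ArA replicate 1 are red for COL4A2, COL16A1, COL6A2 and COL18A1, among others. Both are blue for COL4A5, COL8A1 and COL7A1, of which COL7A1 is GC-rich (64.8%).

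Genes that make, export, bind and degrade collagen were described from 7 lists with 105 genes, of which 74 were tested. By limma adjusted over all genes, 0 of the 74 passed, higher or lower, and 7 had an unadjusted p under 0.05, beside 0.0231% and 2.78% of all genes. Log2 fold changes were positive for 65 (55 to 60 under the 3 other scalings), with a median of 0.12, beside 68.9% of all genes (49.3 to 53.2% under those scalings) and a median of 0.06. In TPM as deposited, the groups were apart for 12 higher genes and 1 lower gene of the 74, where 6.84% and 1.21% of all genes were apart. Separation of these genes under the other scalings was not counted, and groups called apart below are apart in deposited TPM.

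The 19 genes of enzymes and chaperones that modify and fold collagen chains in the endoplasmic reticulum ranged widely in level. Among the tested ones COLGALT2 was the lowest, at a control mean of 5.18 TPM. All 18 tested of 19 had positive log2 fold changes, also under the 3 other scalings, by 0.08 to 0.32 with a median of 0.15, and 0 passed. The median was 0.08 to 0.11 under the other scalings. The prolyl isomerase PPIB had 2292 ± 219 TPM in the controls and 2487 ± 192 TPM after ArA, P4HB, a subunit of prolyl 4-hydroxylase and also a disulfide isomerase, 911 ± 118 and 1021 ± 104 TPM, and CRTAP, part of the prolyl 3-hydroxylation complex, 502 ± 40.8 and 560 ± 24.6 TPM (SD, n = 3 each). P3H4, a partner of lysyl hydroxylation, had the largest difference, with 35.66, 37.15 and 32.62 TPM in the controls and 44.39, 46.70 and 41.26 TPM after ArA. All ArA values of P3H4 were above all control values (log2 fold change 0.32, SE 0.10, adjusted p = 0.999 in limma). Without control replicate 2, 15 of the 18 were positive, beside 51.8% of all genes.

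Among 11 genes of collagen export from the endoplasmic reticulum, 10 were positive (8 or 9 by the other scalings), at a median of 0.11. The coat genes SAR1A, SEC23A and SAR1B were the highest, at 71.8 ± 9.22, 67.7 ± 17.3 and 53.1 ± 7.55 TPM in the controls and 78.8 ± 14.6, 69.3 ± 9.24 and 58.2 ± 10.2 TPM after ArA (SD, n = 3 each). KLHL12, a ubiquitin ligase adaptor that enlarges the transport coat, had the highest log2 fold change at 0.19 (SE 0.18), and TRAPPC2, a trafficking gene, the lowest at -0.13 (SE 0.18). Of 9 tested genes that trim and cross-link collagen, 7 were positive (5 under the other scalings), with a median of 0.11. PXDN, the peroxidase that cross-links collagen IV, had 146.64, 146.66 and 125.01 TPM in the controls and 162.95, 157.61 and 153.18 TPM after ArA, without overlap. The lysyl oxidase LOXL2 had 99.7 ± 13.7 and 108 ± 12.7 TPM and the transglutaminase TGM2 80.9 ± 11.9 and 78.7 ± 3.27 TPM, the lowest log2 fold change of this list at -0.03, while LOXL3 had the highest at 0.18. In both lists 0 genes passed.

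Of 6 tested matrix proteins that bind collagen, 5 were positive (4 under the other scalings), with a median of 0.09, and 0 passed. Fibronectin FN1 had 129 ± 17.4 TPM in the controls and 149 ± 6.54 TPM after ArA, SPARC 83.2 ± 11.9 and 83.4 ± 3.93 TPM, and the proteoglycan AGRN 36.0 ± 1.28 and 38.8 ± 1.69 TPM (SD, n = 3 each). The fibrillin FBN1 had the largest log2 fold change, 0.27 (SE 0.09), and MATN2 the lowest, -0.08. Of 7 tested receptors, all were positive (6 or 7 by the other scalings), at a median of 0.22, and 0 passed. ADGRG1, an adhesion receptor that binds collagen III, had 37.44, 39.65 and 34.59 TPM in the controls and 52.61, 49.80 and 50.91 TPM after ArA, a clear gap between groups and a difference of 0.45 in log2 (SE 0.09; limma adjusted p = 0.999, or 0.570 after GC correction).

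The integrin chains ITGB1 and ITGA2, which pair into a collagen receptor, had 270 ± 86.8 and 47.9 ± 14.4 TPM in the controls and 272 ± 35.3 and 62.2 ± 11.0 TPM after ArA (SD, n = 3 each). ITGB1 had the smallest log2 fold change of the receptors, 0.06. Without control replicate 2, 4 of the 7 receptors were positive, beside 51.8% of all genes.

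Of 6 tested genes of collagen breakdown, 5 were positive (4 or 5 by the other scalings), at a median of 0.23, and 0 passed. The membrane collagenase MMP14 had 318 ± 52.0 TPM in the controls and 385 ± 38.2 TPM after ArA, and the cathepsin CTSB 157 ± 20.4 and 177 ± 6.74 TPM (SD, n = 3 each). The cathepsin CTSL had 270.96, 262.42 and 221.13 TPM in the controls and 331.78, 327.36 and 353.46 TPM after ArA, apart, by 0.43 in log2 (SE 0.10; limma adjusted p = 0.999). MMP13, a collagenase at 0.83 to 3.07 TPM, had the highest log2 fold change, 0.51 (SE 0.25), and the collagenase MMP1 the lowest, -0.24, with 13.53, 11.99 and 14.19 TPM in the controls and 10.49, 11.74 and 10.98 TPM after ArA.

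TGF-beta is a known inducer of collagen genes. Of 17 tested ligands, receptors, SMAD factors and targets, 13 were positive (10 to 12 under the other scalings), with a median of 0.09, and 0 passed. The target CCN2 had 169 ± 11.4 TPM in the controls and 177 ± 5.38 TPM after ArA, and the receptor TGFBR2 124 ± 17.4 and 135 ± 5.63 TPM (SD, n = 3 each). LTBP1, which stores latent TGF-beta in the matrix, had 45.48, 44.12 and 41.35 TPM in the controls and 55.55, 53.45 and 54.32 TPM after ArA. This was the largest log2 fold change of the list, 0.31 (SE 0.08), with no overlap, and the signal carrier SMAD3 had the lowest, -0.10.

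**Figure D5:**
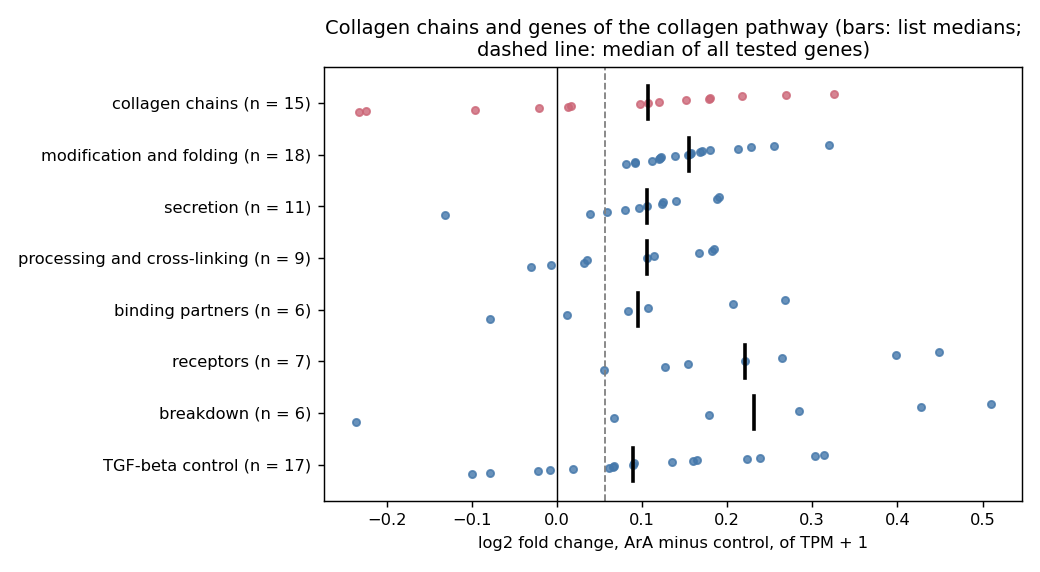
Log2 fold changes, ArA minus control, on the log2(TPM + 1) scale for the 15 collagen chains (red) and the tested members of 7 lists of the collagen pathway (blue). Each point is 1 gene, black bars are list medians and the dashed line is the median of all tested genes (0.06). The list medians lie between 0.09 and 0.23, and that of the collagen chains is 0.11.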

How the data were processed

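The authors deposited 1 table of TPM, with 1 column for each of the 6 libraries. Per the submitters' processing notes, the tools include HISAT2, StringTie and RSEM, with no version listed, and the build is hg38. The role of each tool, the annotation and any use of strand in counting were not given in the sources used here. Per the labels' protocols, a TruSeq kit (Illumina) and 1 µg of RNA per library were used. Groups came from sample titles. TPM are shares of a fixed total, so levels depend on the abundant transcripts, and an exact 0 can be a failed estimate. Depth is unknown and no counting interval can be given.

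The 50 lines without a gene were left out. The 12999 genes that averaged 1 TPM or more were log-transformed as log2(TPM + 1), a pseudocount of 1, then analysed in limma 3.58.1 under R 4.3.3 (eBayes with trend, a single group term). P-values are 2-sided, with Benjamini-Hochberg adjustment across the 12999 genes and a threshold of 0.05. The code was tested on simulated data. Members and lists were chosen with earlier results of these data known.

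All chains with a mean of at least 1 TPM were named. Of each list, the rule named the 3 tested members with the highest mean, those with the highest and lowest log2 fold change, and any past the threshold. Not every gene this rule names is reported here. COL1A2, COL3A1, COL5A2 and other chains below 1 TPM, and the ratios, were chosen after values were seen.

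The GC correction subtracted each library's trend with GC content (natural spline, 5 degrees of freedom). GC content came from the longest GENCODE v29 transcript and was known for 97.2% of tested genes, and only those were tested. Of 18 alternatives, 3 changed the scaling: median of ratios, quantile normalization, and TPM without mitochondrially encoded genes.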

Additional observations from a re-analysis of the deposited data

How the results depend on the processing

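No collagen chain and no pathway gene passed limma's adjusted p of 0.05 in any of the 18 alternatives, and 0 to 3 chains were under an unadjusted p of 0.05. The median log2 fold change of the tested chains was 0.04 to 0.18, and 0.013 over the 40 chains tested with no filter. Relative to the median of all genes it was 0.05, but -0.071 when ArA replicate 1 was left out, -0.053 for control replicate 3 and -0.0059 for control replicate 1. It rose to 0.17 when control replicate 2 was left out, 0.11 for ArA replicate 2 and 0.16 for ArA replicate 3. Over all genes, 3 passed, against 5 with GC correction, 12 without both control replicate 2 and ArA replicate 1, and 0 to 7 in the leave-one-out fits. The fits with 0 left out control replicate 1 (413 genes at an unadjusted limma p under 0.05) or ArA replicate 2 (228 genes). Those with 7 left out control replicate 2 or ArA replicate 1. With the replicate number as a block 0 genes passed in limma (232 at an unadjusted p under 0.05). The labels do not say that numbers pair the samples, and same-numbered libraries' deviations from their group means correlated by -0.16, -0.28 and 0.11. Such deviations sum to 0 within a group, so these values cannot decide whether samples were paired. The cause of the changes in gene counts was not tested.

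The sign of the log2 fold change turned for 5 chains. For COL12A1 it was -0.038 with median-of-ratios scaling, -0.038 with quantile normalization, -0.050 without mitochondrially encoded genes, -0.031 with GC correction (with or without the replicate block) and -0.044 to 0.066 in the leave-one-out fits. For COL13A1 it was -0.036, -0.052, -0.049, -0.045 and -0.063 to 0.072 in the same order. Leave-one-out values ran from -0.00053 to 0.26 for COL4A2, from -0.24 to 0.17 for COL4A5 and from -0.13 to 0.31 for COL7A1. The other 10 chains kept their sign wherever tested. The cause was not tested. Unknown depth limits the chains near 1 TPM most.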
